A study of Mus musculus with 2 samples.

Results

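The 8 genes described here encode homeodomain proteins that bind DNA together with Hox proteins. They are Pbx2, Pbx3 and Pbx4, then Meis1, Meis2 and Meis3, then Pknox1 and Pknox2. They were named beforehand as members of the Pbx, Meis and Pknox families, with earlier results of these data known, and the list does not hold every gene of those families. Their data are the rows of the authors' deposited table of differentially methylated regions that overlap the RefSeq span of a member gene (GRCm38.p6, the assembly of mm10) extended by 2 kb on each side. That rule gave 22 regions of 28141 in the table, at 6 of the 8 genes. Meis3 and Pbx2 had none.

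Whole-genome bisulfite sequencing reads unmethylated cytosines as converted and methylated ones as unconverted, and a methylation level runs from 0, with no cytosine of a region read as methylated, to 1, with all of them. One library came from PDGFRα+ adipocyte progenitors, sorted for the platelet-derived growth factor receptor also called CD140, and the other from CD137+ progenitors, sorted for a costimulatory receptor, also called 4-1BB, that marks beige fat precursors. Both came from adipose tissue of C57BL/6 mice, were sorted magnetically from subcutaneous or visceral fat, cultured, differentiated toward adipocytes with a cocktail and then given the synthetic glucocorticoid dexamethasone at 1 µM. The depot of each library, the age and sex of the mice and any pooling were not given in the sources used here, and no library without dexamethasone was compared. With 1 library per group there is no replicate check and no p-value, and the read depth behind a level is unknown, so levels carry no interval. A bulk level cannot tell a change in every cell from a change in the mixture of cells.

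Pbx proteins form pairs with Meis or Pknox proteins, and this pairing holds Pbx in the nucleus. The pairs then join Hox proteins on DNA and make their binding more selective, which ties the cofactors to positional identity along the body axis. Hox expression is known to differ between fat depots, and in mouse mesenchymal progenitors Pknox1, also called Prep1, is known to restrain adipogenesis.

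The promoters of Meis1, Meis2 and Pbx2 are shown as examples. Listed regions lay on both sides of the start site of these Meis genes, as they also did for Pbx4, which is not printed. Pbx2 had no region and the promoter with the most CG dinucleotides among the members matched. Each line gives the 250 bases before the start site from the RefSeq promoter table (GRCm38.p6), read 5′ to 3′ on the strand of the gene, with the CG dinucleotides, the usual sites of methylation in mammals, in capitals. The window is chr11:19018970-19019219 on the minus strand for Meis1, chr2:116064620-116064869 on the minus strand for Meis2 and chr17:34592009-34592258 on the plus strand for Pbx2.
Meis1: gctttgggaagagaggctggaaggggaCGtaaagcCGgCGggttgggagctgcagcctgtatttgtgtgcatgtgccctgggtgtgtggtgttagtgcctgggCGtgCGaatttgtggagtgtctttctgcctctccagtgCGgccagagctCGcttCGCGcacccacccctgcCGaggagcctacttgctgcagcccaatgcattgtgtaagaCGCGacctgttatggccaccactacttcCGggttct
Meis2: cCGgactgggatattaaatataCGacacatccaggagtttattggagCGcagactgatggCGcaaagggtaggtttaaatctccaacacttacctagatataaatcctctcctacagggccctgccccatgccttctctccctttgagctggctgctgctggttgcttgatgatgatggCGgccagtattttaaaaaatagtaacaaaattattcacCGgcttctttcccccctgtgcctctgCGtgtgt
Pbx2: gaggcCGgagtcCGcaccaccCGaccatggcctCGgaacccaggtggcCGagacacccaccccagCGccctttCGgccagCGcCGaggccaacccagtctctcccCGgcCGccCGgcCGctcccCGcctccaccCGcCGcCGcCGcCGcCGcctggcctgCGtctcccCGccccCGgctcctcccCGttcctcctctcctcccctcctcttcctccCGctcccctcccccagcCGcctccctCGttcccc

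The Meis1 window held 13 CG dinucleotides, the Meis2 window 7 and the Pbx2 window 27, against a median of 6 over the 32851 windows of the table. Pbx2 had more than 91.4% of them. The windows of Meis3 and Pbx4 held 12 each. None of these 5 windows overlapped a listed region. Levels of unlisted sequence are not known, so this does not say how methylated the promoters were. Pbx3, Pknox1 and Pknox2 were not matched in that table, so 5 of the 8 members had a window. The letters TGACAG, the core bound by Meis and Pknox proteins, or their reverse complement CTGTCA were in none of the 5 windows and in 15.9% of all windows. The letters TGATTNAT, a joint Pbx and Hox site, or ATNAATCA were in none of the 5 and in 2.82% of all.

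Most of the cofactor regions were less methylated in PDGFRα+ cells. Of the 22 regions 19 were lower and 3 higher in PDGFRα+, which is 86.4% lower (95% exact Clopper-Pearson interval 65.1 to 97.1, counting error only, regions taken as independent). The background over the whole table was 77.7% lower and 22.3% higher, and it lies inside that interval. The rows were chosen by the authors' methylation difference, through their call of a region as different, so levels, differences and directions are given as a description. The median difference, PDGFRα+ minus CD137+, was -0.51 over the 22 regions and -0.49 over all regions. In the 19 lower regions the median level was 0.220 in PDGFRα+ cells and 0.784 in CD137+ cells, against 0.261 in PDGFRα+ and 0.820 in CD137+ over the lower regions of the whole table. In the 3 higher regions it was 0.889 in PDGFRα+ cells and 0.376 in CD137+ cells. Without Meis1, which held 8 of the 22 regions, 11 of 14 were lower (78.6%), close to the background. All 6 genes with a region had more lower than higher regions, as did 70.4% of the protein-coding genes with a region.

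**Figure D1:**
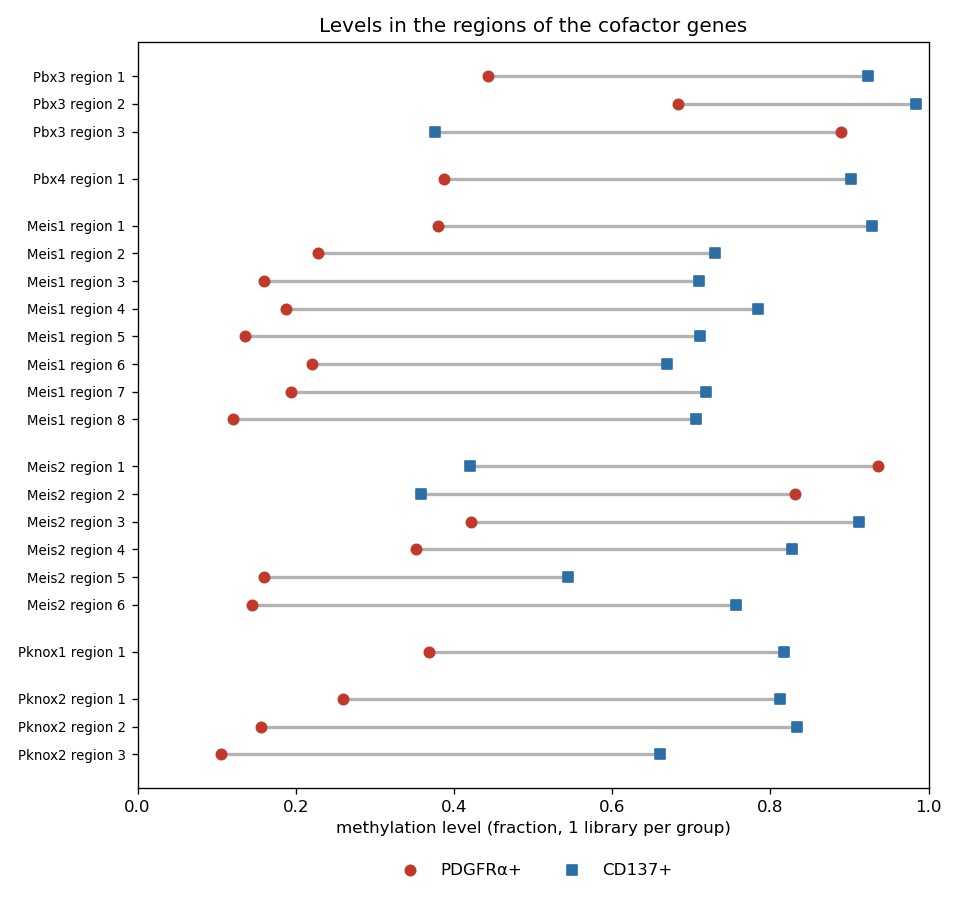
Methylation level (fraction, x axis) in the PDGFRα+ library (circles) and the CD137+ library (squares) for each of the 22 regions at 6 cofactor genes, numbered by position along the chromosome, with a line joining the 2 levels of a region. The PDGFRα+ circle lies left of the CD137+ square in 19 regions and right of it in 3, which belong to Pbx3 and Meis2.

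Long members had regions and short ones did not. Of the 21900 protein-coding genes, 29.5% overlapped at least 1 region by the same rule. Meis1, Meis2, Pbx3 and Pknox2, with spans between 139 and 256 kb, all had regions, as did 77.7% of the 1872 protein-coding genes of 100 to 300 kb. Pbx4 and Pknox1, at 39.8 and 43.0 kb, had 1 region each, and 39.3% of genes of 20 to 100 kb had any. Meis3 and Pbx2, at 12.5 and 5.14 kb, had none, and 12.5% of genes under 20 kb had any. Counted per 100 kb of span, Meis1 was the densest member with 5.75 regions, followed by Meis2 with 2.91, Pbx4 with 2.51, Pknox1 with 2.33, Pbx3 with 1.50 and Pknox2 with 1.17.

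**Figure D2:**
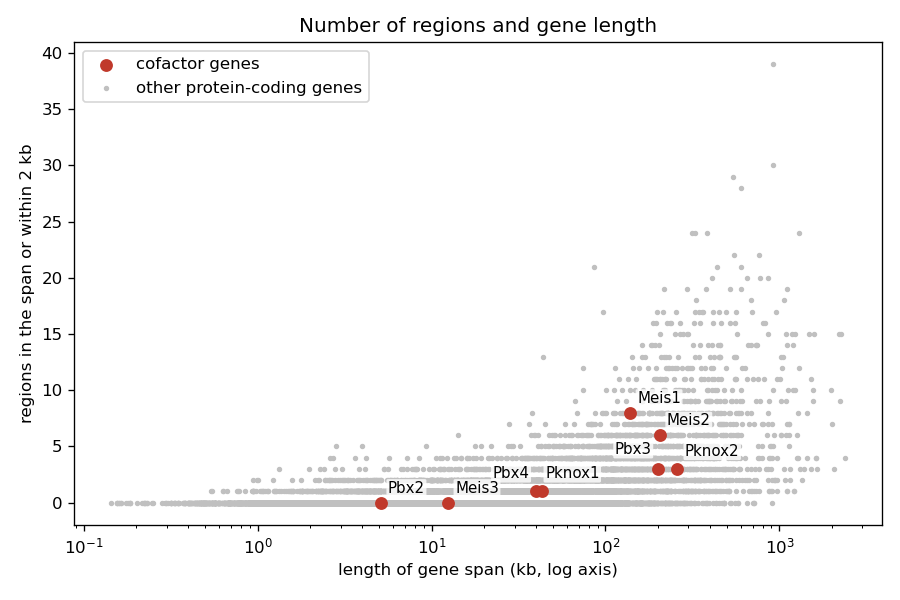
Number of listed regions in the gene span or within 2 kb (y axis) against the length of the span (kb, log x axis) for protein-coding genes (small points) and the 8 cofactor genes (large labelled points). Meis1 with 8 regions lies above the median of 2 for genes of 100 to 300 kb, and Meis3 and Pbx2 lie at 0.

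Meis1, a gene of blood stem cell maintenance and a partner of Hox proteins in leukaemia, was lower in PDGFRα+ cells in all of its 8 regions. The gene (ID 17268) spans chromosome 11 from 18880428 to 19019651 and is read from the upper end, with its start site at 19018969. Region starts are copied from the table, which may count from 0 or from 1, so each carries an uncertainty of 1 base. Among genes of 100 to 300 kb, 8.07% had at least 8 regions and 1.76% (33 genes) had at least 8 with every one lower. Meis1 is 1 of these 33, but its count depends on how neighbouring regions were split. With regions under 1 kb apart merged it had 5 regions, all lower, and the shares over other genes were not recounted. Over the 8 regions the mean level of Meis1 was 0.203 in PDGFRα+ cells and 0.745 in CD137+ cells, a mean difference of -0.54.

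The regions of Meis1 gathered just downstream of its start site. Between 19008098 and 19014540, a stretch of 6442 bases, 5 regions covered 51.8% of the sequence and held 146 of the 184 cytosines of all the Meis1 regions. The nearest edge of this run lay 4429 bases from the start site. Weighted by cytosines, its level was 0.146 in PDGFRα+ cells and 0.722 in CD137+ cells.

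The longest Meis1 region, 19009155 to 19011054, had 1899 bases and 60 cytosines, with a level of 0.136 in PDGFRα+ cells and 0.711 in CD137+ cells. By the authors' area statistic it ranked 70 among the 21870 lower regions, and by length 12. The region nearest the start site, 19013815 to 19014540, had 47 cytosines and levels of 0.121 in PDGFRα+ cells and 0.706 in CD137+ cells. It ranked 107 by the same statistic. These are the only 2 cofactor regions among the lower ones with a rank in the top 1%.

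The other 3 regions of the run were shorter. The region 19008098 to 19008503, the farthest from the start site within the run, had levels of 0.188 in PDGFRα+ cells and 0.784 in CD137+ cells. A pair of small neighbours 58 bases apart had 0.220 and 0.194 in PDGFRα+, against 0.670 and 0.718 in CD137+. All 5 regions of the run also lie within the span of Gm16141, a long noncoding RNA gene that overlaps this end of Meis1, so they cannot be given to Meis1 alone.

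Farther into Meis1 3 regions stood apart from each other, and among these the PDGFRα+ level was higher with distance. The order did not hold over the whole gene, since the farthest region of the run had a PDGFRα+ level of 0.188. At 37360 bases from the start site the level was 0.160 in PDGFRα+ cells and 0.710 in CD137+ cells. At 62609 bases it was 0.228 in PDGFRα+ cells and 0.730 in CD137+ cells. At 87619 bases it was 0.380 in PDGFRα+ cells and 0.928 in CD137+ cells, the highest level of each library among the 8. The differences of these 3, between -0.55 and -0.50, were about as large as those of the run, between -0.60 and -0.45.

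Upstream of the Meis1 start site another listed region was lower in PDGFRα+ cells. No listed region lay between it and the run, so the levels in between are not known. A region 3679 bases outside the span and 4361 bases upstream of the start site, 19023330 to 19023608, had levels of 0.177 in PDGFRα+ cells and 0.738 in CD137+ cells, similar to the run downstream. At the other end, 3852 bases outside the span, a region within the noncoding RNA gene 8430419K02Rik was higher in PDGFRα+ with a level of 0.206, against 0.0082 in CD137+. With 27 cytosines in 132 bases it held 20.5 cytosines per 100 bases, while the 8 Meis1 regions held between 2.86 and 6.91. Both regions fall just outside the 2 kb limit and are not among the 22.

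**Figure D3:**
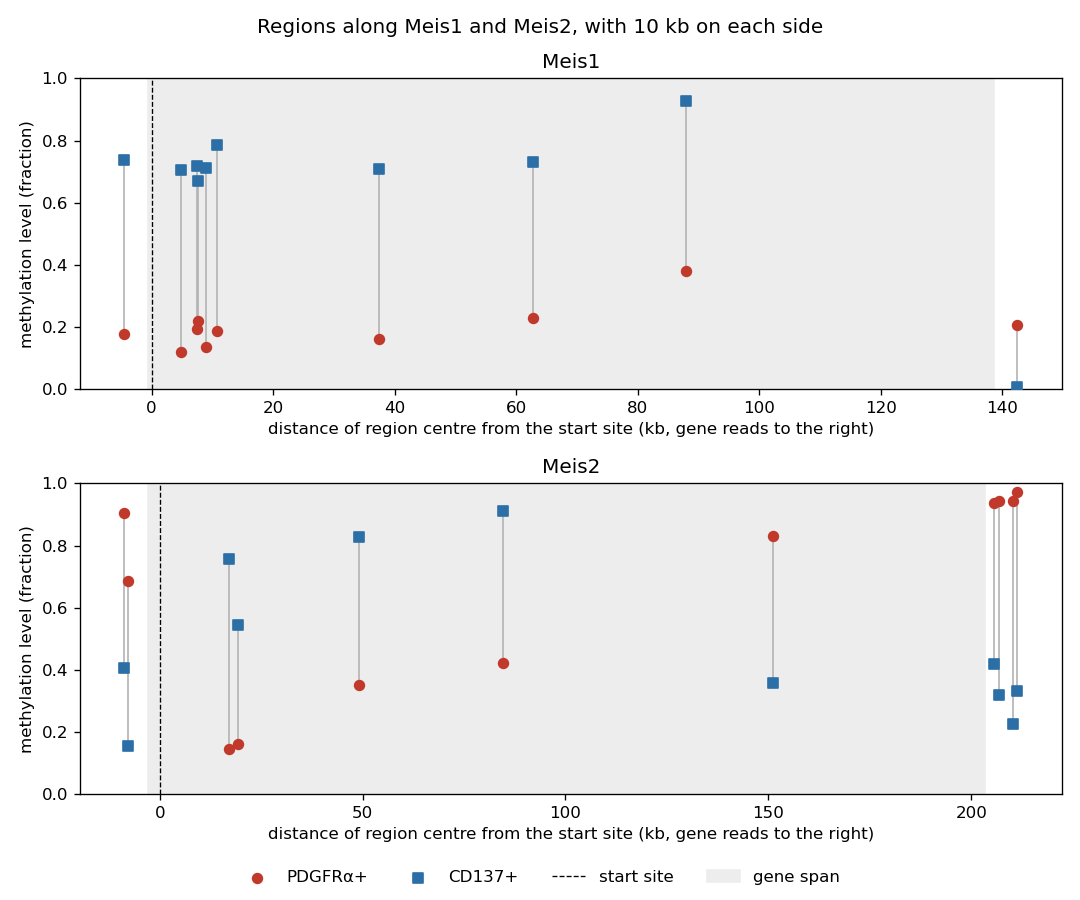
Methylation level (fraction, y axis) of each listed region along Meis1 (upper panel) and Meis2 (lower panel), placed by the distance of its centre from the start site (kb), with circles for PDGFRα+ and squares for CD137+. Shading marks the gene span, and 10 kb beyond each end is included. PDGFRα+ circles lie below the squares in all Meis1 regions but the one beyond its far end, while in Meis2 they lie below within the first 4 regions downstream of the start site and above at both ends.

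Meis2, a gene of palate, limb and neural crest development, had regions of both directions, sorted by place. The gene (ID 17536) spans chromosome 2 from 115861264 to 116067537 and is also read from the upper end. The start site used, 116064619, lies inside the span, so distances from it are not distances from the end of the gene. Of its 6 regions, the 4 nearest the start site were lower in PDGFRα+ and the 2 farthest were higher. The mean difference was -0.16, and it was 0.057 with regions weighted by cytosines and 0.023 weighted by length, so the sign for the whole gene depended on the weighting.

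The 4 lower Meis2 regions lay between 16830 and 84446 bases from the start site. The region closest to it, 116047390 to 116047789, had levels of 0.145 in PDGFRα+ cells and 0.756 in CD137+ cells, the widest difference of the gene at -0.61. Its neighbour at 19320 bases had only 4 cytosines and levels of 0.160 in PDGFRα+ cells and 0.544 in CD137+ cells. At 48890 bases the levels were 0.352 in PDGFRα+ cells and 0.827 in CD137+ cells, and at 84446 bases 0.422 in PDGFRα+ cells and 0.913 in CD137+ cells. As in Meis1, the assigned region nearest the start site had the lowest level in PDGFRα+ cells, and with so few regions this is a description.

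The higher Meis2 regions lay toward and beyond the far end. At 150971 bases the region 115913182 to 115913648 had levels of 0.831 in PDGFRα+ cells and 0.358 in CD137+ cells. The region 115858488 to 115859362, 1902 bases outside the span and so just within the 2 kb limit, had 874 bases, 51 cytosines and levels of 0.936 in PDGFRα+ cells and 0.420 in CD137+ cells. It ranked 13 by area statistic among the 6271 higher regions, the highest rank of any cofactor region in its direction.

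That region was the nearest of 4 higher regions in a row beyond the far end of Meis2. The next, 115857658 to 115858004, lay 3260 bases outside the span, with levels of 0.943 in PDGFRα+ cells and 0.318 in CD137+ cells. At 6766 bases the levels were 0.944 in PDGFRα+ cells and 0.225 in CD137+ cells, and at 7896 bases 0.972 in PDGFRα+ cells and 0.332 in CD137+ cells. None of the 4 lies in the span of another gene. The difference at 6766 bases, 0.72, was wider than that of any of the 22 assigned regions, of which the widest was -0.68 in Pknox2.

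Upstream of Meis2 the direction was again higher. The regions at 7661 and 8378 bases before the start site had levels of 0.685 and 0.906 in PDGFRα+, against 0.156 and 0.407 in CD137+. Both lie in the span of G630016G05Rik, a long noncoding RNA gene next to Meis2. With 10 kb on each side, 7 of 11 Meis2 regions were higher and 4 lower, with all 6 regions outside the span higher, and the mean difference was 0.19 in place of -0.16.

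Meis3, whose product acts in hindbrain patterning in frogs, had no region in its 12.5 kb span or within 2 kb. The gene (ID 17537) lies on chromosome 7 from 16174012 to 16186510, and the nearest region lay 18306 bases away within Slc8a2, with levels of 0.106 in PDGFRα+ cells and 0.938 in CD137+ cells.

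Among the Pbx genes, Pbx3 held regions of both directions. Pbx3 is needed for the control of breathing in newborn mice, and the gene (ID 18516) spans chromosome 2 from 34171457 to 34372045. The region 34174828 to 34174912, with 4 cytosines, had levels of 0.443 in PDGFRα+ cells and 0.924 in CD137+ cells. The region 34225766 to 34225823, with 7 cytosines, had 0.683 in PDGFRα+ cells and 0.984 in CD137+ cells, the smallest absolute difference of the 22 at 0.30. The remaining region, 34359901 to 34360160, went the other way.

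That Pbx3 region had 16 cytosines in 259 bases, with levels of 0.889 in PDGFRα+ cells and 0.376 in CD137+ cells. It held more cytosines than the 2 lower regions together, so the mean difference of -0.09 turned to 0.16 with weighting by cytosines and 0.19 by length. It lay 188444 bases above the lower end of the span of 201 kb, with the lower regions 3371 and 54309 bases from that end.

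Pbx4, a gene expressed mainly in the testis of mice, was lower in its only region. The gene (ID 80720) spans chromosome 8 from 69832476 to 69872292, and the region 69849077 to 69849182, with 6 cytosines, lay 16453 bases downstream of the start site. Its levels were 0.387 in PDGFRα+ cells and 0.902 in CD137+ cells. A region 2547 bases beyond the far end, just outside the limit, had 0.337 in PDGFRα+ cells and 0.840 in CD137+ cells, and one 4215 bases beyond the near end, within Lpar2, had 0.111 in PDGFRα+ cells and 0.780 in CD137+ cells. All 3 were lower in PDGFRα+.

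Pbx2, a Pbx gene whose loss alone leaves mice viable, had no region. The gene (ID 18515) spans 5142 bases of chromosome 17 from 34592259 to 34597400. The nearest region lay 6109 bases away within Notch4, with levels of 0.256 in PDGFRα+ cells and 0.798 in CD137+ cells.

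The Pknox genes, whose products pair with Pbx much as Meis proteins do, were lower in PDGFRα+ in all 4 of their regions. Pknox1 (ID 18771, chromosome 17 from 31564722 to 31607693) had 1 region, 31583496 to 31583591, with 8 cytosines and levels of 0.368 in PDGFRα+ cells and 0.817 in CD137+ cells. Pknox2 (ID 208076, chromosome 9 from 36890979 to 37147342) had 3 regions, all at least 133527 bases above the lower end of a span of 256 kb.

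The Pknox2 regions showed the lowest PDGFRα+ level and the widest difference among the 22. The region 37024506 to 37024851 had 0.259 in PDGFRα+ cells and 0.812 in CD137+ cells. The region 37047199 to 37047326, which also lies in the noncoding RNA gene Gm34538, had 0.156 in PDGFRα+ cells and 0.833 in CD137+ cells, a difference of -0.68. The region 37120909 to 37121208 had 0.105 in PDGFRα+ cells and 0.660 in CD137+ cells. The mean over the 3 was 0.173 in PDGFRα+ cells and 0.769 in CD137+ cells.

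**Figure D4:**
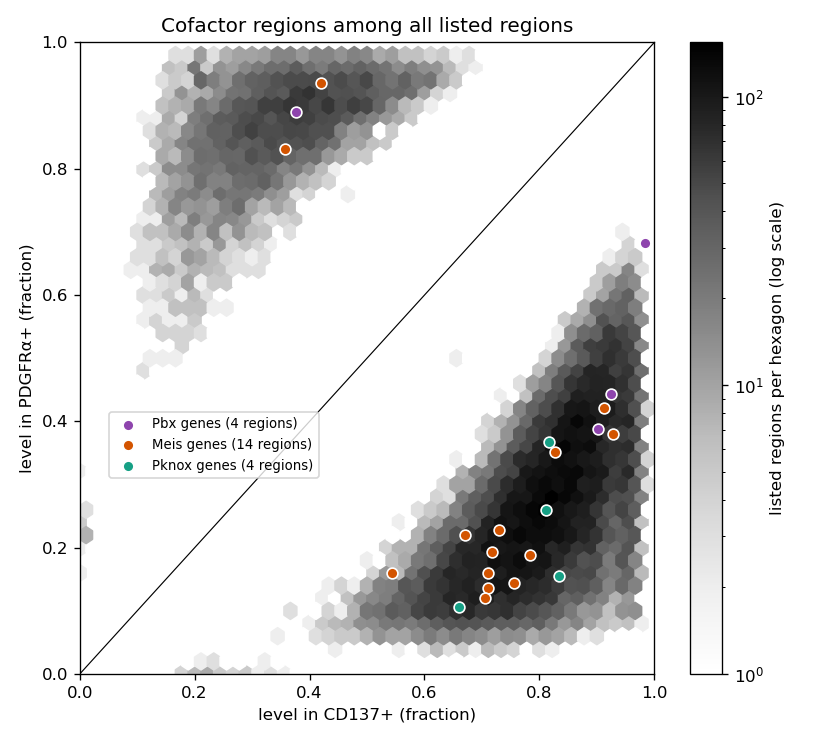
Level in PDGFRα+ (y axis) against level in CD137+ (x axis), both as fractions, for all 28141 listed regions (hexagons, darker with more regions on a log scale) and for the cofactor regions coloured by family. The 19 lower cofactor regions lie below the diagonal within the cloud of lower regions, and the 3 higher ones, from Meis2 and Pbx3, lie above it.

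In length and cytosine content the cofactor regions were much like the table as a whole. Their median length was 279 bases with 9.5 cytosines and 4.82 cytosines per 100 bases, against 216 bases, 9 cytosines and 4.62 over all regions. Among the members with more than 1 region the median length was 433 bases in Meis2, 365 in Meis1, 299 in Pknox2 and 84 in Pbx3, and the Meis genes held 300 of the 368 cytosines in cofactor regions.

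The Hox genes themselves, the partners of these cofactors, leaned the other way. Of 39 Hox genes 21 had a region, against 29.5% of all protein-coding genes, with 14 mostly higher in PDGFRα+, 6 mostly lower and 1 split. Neighbouring Hox genes share regions, and of the 42 distinct regions 25 were higher and 17 lower, with 22.3% higher over the table. Hoxa3 (13 regions) and Hoxa5 (5 regions) were lower in every region, with mean levels of 0.270 and 0.304 in PDGFRα+, against 0.736 and 0.788 in CD137+. Hoxd3 was higher in all 7 regions (0.821 in PDGFRα+ cells and 0.315 in CD137+ cells) and Hoxb3 in 4 of 5 (0.694 in PDGFRα+ cells and 0.430 in CD137+ cells). Hoxa3 and Hoxa5 have some of these regions in common, so they are not separate cases. Meis1 had the same direction as these genes, which is also that of 77.7% of all regions. A link between Meis1 and the Hox genes and the difference between the lists were not tested.

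The other genes of the same homeobox class, known as TALE, and the ParaHox and Evx genes make short lists, from which no lack of regions can be read. Of all protein-coding genes 29.5% had any region, and 12.5% of those under 20 kb. Of 9 Tgif, Irx and Mkx genes only Tgif2 had a region (11.1%, close to the share of genes under 20 kb), with levels of 0.444 in PDGFRα+ cells and 0.959 in CD137+ cells. None of 8 ParaHox and Evx genes had any.

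RNA was not measured, so the labelled cell types could be checked only through methylation. Pdgfra had 1 region, lower in PDGFRα+ cells, and Tnfrsf9, the gene of CD137, had none. Of 6 leukocyte markers all had a region, beside 29.5% of all protein-coding genes, with gene length not matched. Of their 21 distinct regions 18 were higher in PDGFRα+. By gene, 3 of the 6 were mostly higher, 1 mostly lower and 2 split. Of 10 regions at 4 endothelial markers 7 were higher, both regions at 4 mural markers were lower, and of 9 regions at 4 mesothelial markers 8 were lower. By gene, 3 endothelial markers were mostly higher and 1 mostly lower, and the 3 mesothelial markers with a region were all mostly lower. Of all listed regions 22.3% were higher and 77.7% lower. The part of other cell types in the levels of the cofactor genes was not tested.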

How the data were processed

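A library of PDGFRα+ and another of CD137+ progenitors, grouped by title, were read by whole-genome bisulfite sequencing. Per the labels' protocols, DNA was sheared to about 350 bases, bisulfite-converted and amplified. The authors deposited 1 table of regions called as different on mm10, per the submitters' processing notes. Per the file headers it gives each methylation level as a fraction, the difference (CD140 minus CD137) and an area statistic as scores, and the count of cytosines, which is not a read count. The region length, in bases, equals end minus start in all 28141 regions. Not given in the sources used here were the aligner, the callers and their thresholds. The table lists only regions called as different, of which 199 had an absolute difference under 0.3, so levels of unlisted sequence are not known.

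Regions were assigned to RefSeq gene spans extended by 2 kb, a step tested on simulated data and checked gene by gene over 300 genes (0 differences). Strand and start sites came from the RefSeq promoter table, with 1 start site per gene, which can lie inside the span. Exons were not used here, so exons, introns and untranslated regions are not separated. Shares carry exact binomial intervals. With 1 library per group, none of the differences was tested. The members and lists were chosen with earlier results of these data known. All 8 members are named with every region, and from the other lists at most 4 genes with the most regions. Alternatives covered the difference, cytosines, area statistic, flank, merging and weighting. Tables were handled with pandas 2.3.3 and numpy 2.4.6 in Python 3.11.15, intervals with scipy 1.17.1 and figures with matplotlib 3.10.9.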

Additional observations from a re-analysis of the deposited data

How the results depend on the processing

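No paired analysis was possible because each group had 1 library and no test was made. Depth is unknown, so its effect on a level cannot be given. Fewer than 22 regions were left with differences of at least 0.5 (14 regions), at least 10 cytosines (11) or an area statistic above the median (12). With 100 kb on each side, an alternative chosen after seeing the data, there were 51, of which 37 were lower. The share of lower regions stayed inside its wide interval (65.1 to 97.1) and the median difference stayed negative under every alternative run. Its side of the 77.7% of the whole table did change, from 86.4% above it to values below it. These were 71.9% with 10 kb flanks, 72.5% with 100 kb, 72.7% with at least 10 cytosines and 75% with the area statistic above the median. The share of the whole table was not recomputed under these settings. Pbx3 turned from a mean difference of -0.09 to 0.51 with differences of at least 0.5, with at least 10 cytosines or with the area statistic above the median, 0.11 with at least 5 cytosines, 0.16 weighted by cytosines and 0.19 weighted by length. Meis2 turned from -0.16 to 0.19 with 10 kb flanks, 0.13 with 100 kb, 0.057 weighted by cytosines and 0.023 weighted by length. It stayed negative but moved to -0.30 with no flank, -0.048 with differences of at least 0.5 and -0.029 with at least 10 cytosines or the area statistic above the median, and Pbx3 was -0.27 with 100 kb. With 10 kb flanks Meis1 moved to -0.47 and Pbx4 to -0.56, and Pbx2 gained 1 region. With 100 kb flanks the means were -0.38 for Meis1, -0.56 for Pbx4 and -0.28 for Pknox1. Wider flanks bring in other regions by construction.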

Other observations

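Farther from the genes, lower regions outnumbered higher ones around 6 of the 8 members, with Meis1 (1 lower and 2 higher) and Meis2 (1 lower and 5 higher) as the exceptions. Most regions of the whole table, 77.7%, were lower too. With 100 kb on each side 37 of 51 regions were lower, the 22 assigned ones included. That share of 72.5% was below the 86.4% of the assigned regions and below the whole table, and the difference was not tested. Between 2 and 100 kb outside the span, Pbx3 had 3 lower regions and no higher one, Pbx4 2 lower and no higher, and Pknox2 1 lower and no higher. The region with the largest difference among these at Pbx3, one of 912 bases lying 64165 bases below the span, had levels of 0.160 in PDGFRα+ cells and 0.750 in CD137+ cells. Around Pbx2, 6 regions were lower and 2 higher, and the longest, 1554 bases within Tnxb, was higher with 0.844 in PDGFRα+ cells and 0.324 in CD137+ cells. Around Pknox1, a region 70724 bases above the span was higher, with 0.945 in PDGFRα+ cells and 0.233 in CD137+ cells, while a region 97618 bases above it was lower, with 0.186 in PDGFRα+ cells and 0.919 in CD137+ cells. On the upstream side of Meis1, 73237 bases outside the span, a region was higher with 0.877 in PDGFRα+ cells and 0.405 in CD137+ cells.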
